A study of Mus musculus with 7 samples.

Results

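The genes of the transforming growth factor beta (TGF-beta) and bone morphogenetic protein (BMP) pathway were examined in RNA-seq libraries of mouse embryonic fibroblasts (MEFs) and mouse embryonic stem cells (mESCs). The pathway was taken as 46 named genes, chosen by symbol, and all 46 were rows of the count table, which lists 55484 genes. They comprised 12 ligands, 5 genes of the latent complex and of processing, 9 receptors, 6 secreted inhibitors, 6 receptor-regulated and common SMADs, 7 intracellular inhibitors, which include the inhibitory Smad6 and Smad7, and Tgfbi. The study compared pluripotent stem cells with fibroblasts to find the transcription factors of the pluripotent state, and RNA-seq gave the expression part of that comparison. Here 4 MEF and 3 mESC libraries were used. The study gives a C57/Bl6 background for its MEFs and mESCs in the methods of its chromatin libraries. It describes the RNA data as a set that the laboratory already held. The labels give no treatment or time point. MEFs are a mixed primary culture grown from whole embryos, and mESCs are cultured cells of the early embryo that can form all tissues. The study describes sorting of Thy1+ fibroblasts and of Thy1-/Ssea1+/Epcam+ mESCs for its chromatin libraries, and the sources used here do not say whether the RNA came from sorted cells.

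TGF-beta and BMP ligands are secreted dimers that bring together type I and type II receptor kinases, which then phosphorylate SMAD proteins. TGF-beta and activin ligands act mainly through Smad2 and Smad3, BMP ligands act mainly through Smad1, Smad5 and Smad9, and both groups share Smad4. Fibroblasts make and store latent TGF-beta in their matrix, and the ligand drives collagen production in these cells. In mouse pluripotent cells, BMP4 helps to maintain self-renewal in culture, and activin and nodal signal through Smad2 and Smad3.

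Of the 46 pathway genes, 41 had enough counts to be tested, and 36 of these differed between the cell types at an adjusted p under 0.05 by the quasi-likelihood test of edgeR, with Benjamini-Hochberg adjustment over all 16580 genes tested. Of all genes tested, 47.9% passed the same threshold. A total of 33 pathway genes were lower in mESCs and 3 were higher, whereas 25.0% of all tested genes were lower and 22.8% were higher. The median log2 fold change, mESC minus MEF, was -2.25 over the 41 genes and 0.04 over all genes tested. In 37 of the 41 genes the MEF and mESC libraries did not overlap, and this held for 52.0% of all genes tested. The strongest differences were in Inhba, Tgfb3, Tgfb2, Gdf10, Grem1 and Bmp1, which were 34.2-fold to 117-fold lower in mESCs, while Bmp7 was 8.56-fold higher. Of these lower genes, all but Inhba had at most 36 counts in any mESC library, and Bmp7 had at most 11 in any MEF library. In bulk samples, fewer cells that use a gene and less RNA of it per cell cannot be told apart.

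Library totals were 6528643 to 11441278 counts in MEFs and 7462710 to 8193825 counts in mESCs. Levels are given as CPM, the count of a gene divided by the total of its library and brought to a fixed common total, with library totals scaled by edgeR's TMM factors, and values of single libraries are listed within each cell type in order of falling total. Because the library method reads the 3′ ends of transcripts and counts each molecule once by its molecular identifier, these values are not divided by gene length. Shares of related genes in their summed counts are given to follow each share between the cell types, and a share within 1 library is not read as the order of the genes' levels. The 12 pluripotency markers summed to 114 to 158 CPM in MEFs and 4148 to 4239 CPM in mESCs, and the 12 fibroblast markers summed to 23450.0 to 40200.0 CPM in MEFs and 167 to 195 CPM in mESCs. All 12 markers of either list were detected above 3 counts in at least 1 mESC library. Endothelial markers, which matter for Eng and Acvrl1, summed to 17.0 to 26.1 CPM in MEFs and 32.6 to 56.5 CPM in mESCs. Pecam1, which mESCs also express, was at 22 to 38.3 CPM there. Of the others in mESCs, Emcn was at 6.38 to 10.9 CPM, Tek at 2.60 to 5.56 CPM and Cldn5 at 0.974 to 1.36 CPM. Kdr was at 0.325 to 1.30 CPM and Cdh5 at 0 to 0.325 CPM in mESCs. Emcn, Tek and Kdr overlapped between the cell types and did not pass the test. Markers of blood cells summed to 24.7 to 63.7 CPM in MEFs and 21.4 to 28.9 CPM in mESCs, epithelial markers to 120.5 to 152.5 and 168 to 204.5 CPM, primitive endoderm markers to 26.3 to 35.0 and 13.3 to 39.5 CPM, trophoblast markers to 4.80 to 9.36 and 60.5 to 94.7 CPM, and skeletal muscle markers to 24.2 to 42.3 and 11.5 to 18.1 CPM. In the primitive endoderm sums, Gata6 was at 25.8 to 34.9 CPM in MEFs and 8.83 to 26.0 CPM in mESCs. Sox17 and Foxa2 had 0 counts in MEFs and were at 1.06 to 5.52 and 0.471 to 2.27 CPM in mESCs. Sox7 was at 0 to 0.384 CPM in MEFs and 0.707 to 3.79 CPM in mESCs. Gata4 was at 0 to 0.763 and 0.795 to 2.24 CPM. Sox17, Foxa2, Sox7 and Gata4 were higher in every mESC library but had too few counts to be tested. In the trophoblast sum of mESCs, Tfap2c was at 50.5 to 78.7 CPM and Eomes at 6.49 to 13.9 CPM. Cdx2, Elf5 and Hand1 reached at most 0.341, 1.77 and 0.353 CPM there. Of the epithelial markers, Cdh1 was at 2.69 to 5.19 CPM in MEFs and 79.3 to 101 CPM in mESCs, and Krt18 was lower in mESCs. Krt14 was at 36.5 to 48.2 CPM in MEFs and 36.2 to 45.7 CPM in mESCs, and Krt5 at 34.0 to 44.7 and 32.8 to 38.6 CPM. Krt8 was at 0.796 to 3.17 and 2.06 to 3.18 CPM, and Trp63 at 10.4 to 19.5 and 8.44 to 8.97 CPM. Krt14, Krt5, Krt8 and Trp63 did not pass the test. Of the sort markers, Thy1 was at 325 to 386 CPM in MEFs and 6.24 to 7.79 CPM in mESCs, and Epcam was at 10.0 to 12.6 and 217 to 304 CPM. Fut4, listed for the Ssea1 epitope, was at 0.36 to 1.98 and 0.757 to 1.02 CPM. It had too few counts to be tested, and its level is not a measure of that epitope. The part of other cell types in the pathway values was not tested.

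**Figure D1:**
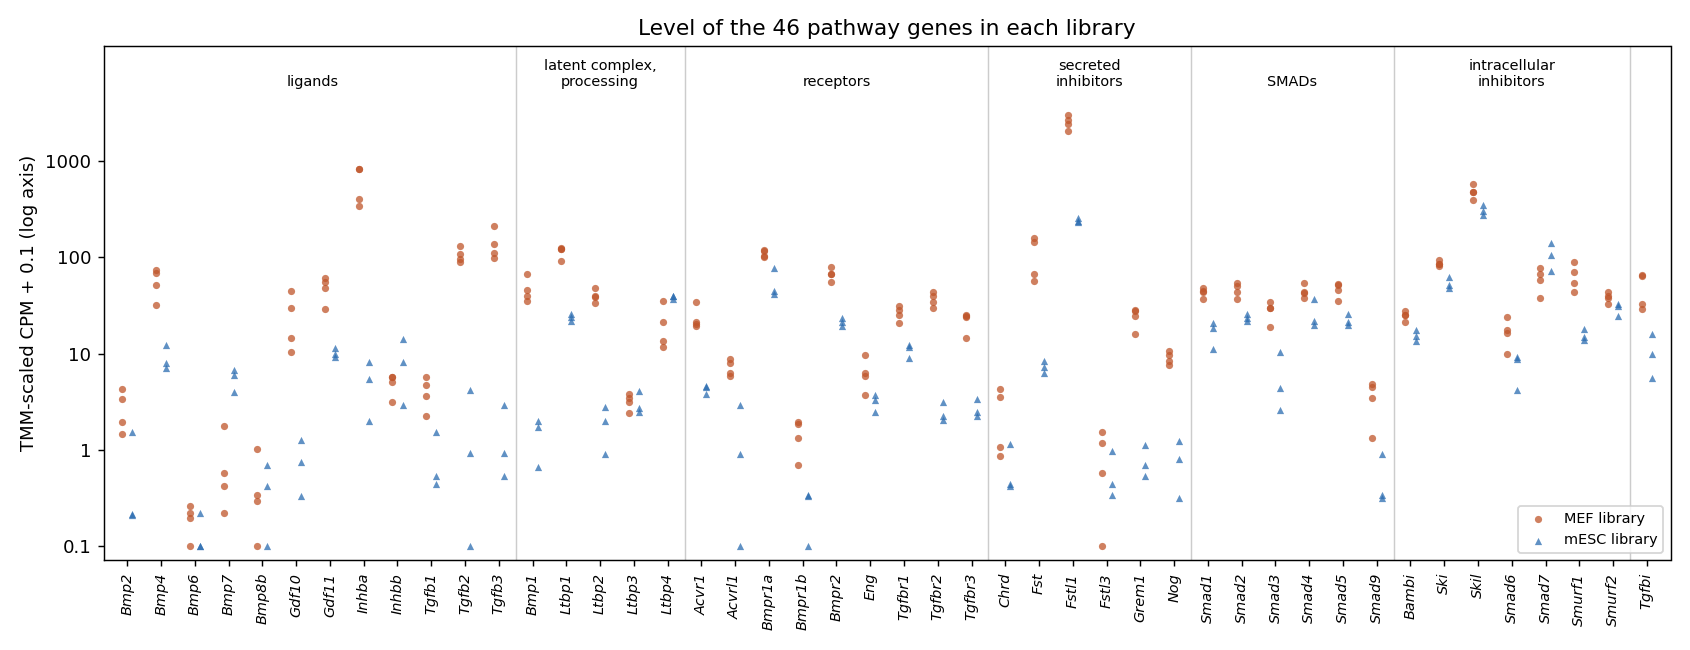
Level of each of the 46 pathway genes in each of the 7 libraries, as TMM-scaled CPM plus 0.1 on a log axis, grouped by role. Circles are the 4 MEF libraries and triangles the 3 mESC libraries. For most genes the triangles lie below the circles, and Bmp7 and Ltbp4 show the opposite order without overlap.

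Promoter sequences are shown for 4 genes that were lower in mESCs and stand for different steps of the pathway, an activin subunit, a TGF-beta ligand, the TGF-beta type II receptor and a BMP ligand. They were chosen after sequences and values had been seen, and Ltbp4, which was first among them, was replaced by Bmp4 because its window ran into the annotated gene. Each is the 250 bases before the RefSeq start of the gene in build GRCm38.p6, written 5′ to 3′ on the gene's strand. Capitals mark motifs, found on either strand, that do not overlap in these windows. CAGAC is the core of the SMAD binding element. CACGTG, the E-box, was searched for comparison. A core promoter element, TATAAA, was added to the search after the sequences had been read.
Inhba, chr13:16011601-16011850, plus strand: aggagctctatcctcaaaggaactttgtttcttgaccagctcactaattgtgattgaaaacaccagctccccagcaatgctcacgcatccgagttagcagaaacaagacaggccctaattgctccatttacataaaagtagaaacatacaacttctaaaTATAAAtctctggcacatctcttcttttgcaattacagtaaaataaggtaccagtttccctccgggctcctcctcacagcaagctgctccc
Tgfb2, chr1:186705990-186706239, minus strand: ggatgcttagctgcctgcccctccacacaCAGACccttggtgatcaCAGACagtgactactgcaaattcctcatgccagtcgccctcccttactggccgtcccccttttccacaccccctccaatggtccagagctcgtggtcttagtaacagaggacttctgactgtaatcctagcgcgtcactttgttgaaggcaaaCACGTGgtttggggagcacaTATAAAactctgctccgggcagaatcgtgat
Tgfbr2, chr9:116175364-116175613, minus strand: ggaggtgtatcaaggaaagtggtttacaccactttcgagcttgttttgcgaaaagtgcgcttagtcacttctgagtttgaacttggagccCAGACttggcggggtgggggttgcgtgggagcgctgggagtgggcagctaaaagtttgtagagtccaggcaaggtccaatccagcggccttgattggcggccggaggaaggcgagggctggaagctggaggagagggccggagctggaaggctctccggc
Bmp4, chr14:46390670-46390919, minus strand: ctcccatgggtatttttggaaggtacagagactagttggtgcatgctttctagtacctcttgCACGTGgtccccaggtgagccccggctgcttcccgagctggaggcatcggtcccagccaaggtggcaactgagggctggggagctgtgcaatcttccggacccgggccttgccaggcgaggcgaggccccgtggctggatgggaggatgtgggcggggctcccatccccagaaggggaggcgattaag

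Inhba held 1 TATAAA whose first base lies 91 bases before the start. Tgfb2 held CAGAC at 221 and 204 bases, CACGTG at 51 bases and TATAAA at 31 bases before the start. Tgfbr2 held 1 CAGAC at 160 bases, and Bmp4 held 1 CACGTG at 188 bases. RefSeq windows were matched for 33 of the 46 genes. For these, 1 window a gene was kept, the nearest to the annotated gene start, whereas the windows of all promoters keep every start. Some kept windows, such as those of Acvr1, Bmpr1a, Bmpr1b and Bmpr2, lie inside the annotated gene. On either strand, CAGAC was present in 45.5% of these 33 and in 42.2% of all 32851 promoter windows of the same length, CACGTG in 9.09% and 6.02%, and TATAAA in 15.2% and 12.4%. GGCGCC, the GC-rich SMAD site, was present in 27.3% of the pathway promoters and in 9.59% of all promoters. The pathway promoters had a median G+C content of 68.0% and a median of 22 CpGs, and all promoters had medians of 52.4% and 6, so the GC-rich motif stands beside a difference in base composition whose part in it was not tested. The searches describe letters only.

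The TGF-beta ligands were lower in mESCs. Tgfb1, Tgfb2 and Tgfb3 encode the 3 TGF-beta isoforms. Tgfb2 (chr1:186622792-186705989, minus strand in GRCm38) was at 109, 96.8, 131 and 89.8 CPM in the MEF libraries and 0, 4.09 and 0.825 CPM in the mESC libraries. The mESC libraries held 0, 36 and 7 counts, and the log2 fold change was -6.02 (SE 0.72, adjusted p = 5.53e-05). Most of the mESC signal was in 1 library: without the mESC library of 8057985 counts the log2 fold change was -8.01, and without that of 8193825 counts it was -5.43. Tgfb3 (chr12:86056745-86079041, minus strand) was at 139, 112, 211 and 98.5 CPM in MEFs and 0.433, 2.84 and 0.825 CPM in mESCs, a log2 fold change of -6.67 (SE 0.54, adjusted p = 3.44e-06). The same mESC library held the highest mESC value, and without it the log2 fold change was -7.78. Of the 50-base sequences of Tgfb3, 8.79% also occur in other genes, most often in antisense Gm48008, whose own row held at most 2 counts in any library. Tgfb1 had few counts, at 3.55, 2.16, 5.65 and 4.62 CPM in MEFs and 0.433, 0.341 and 1.41 CPM in mESCs. Its log2 fold change was -2.43 (SE 0.64, adjusted p = 0.00901), and it was -3.31 without the mESC library of 7462710 counts. All 3 isoforms were separated between the cell types. As a share of the 3 genes' counts, Tgfb1 made up 1.02 to 2.39% in MEFs and 4.69 to 50% in mESCs, but the mESC shares rest on only 8, 64 and 26 counts.

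The activin subunit Inhba showed the largest fitted difference of the pathway genes with all 7 libraries in the fit. Without the mESC library of 8057985 counts, Tgfb2 at -8.01 and Tgfb3 at -7.78 were further from 0 than Inhba at -7.37. Inhba (chr13:16011851-16031621, plus strand) encodes the beta A subunit of activin A and of inhibin A. It was at 829, 409.6, 828 and 347 CPM in MEFs and 5.3, 8.17 and 1.88 CPM in mESCs, or 603 ± 261 CPM (SD, n = 4) against 5.12 ± 3.15 CPM (SD, n = 3). The log2 fold change was -6.87 (SE 0.56, adjusted p = 3.36e-06), 117-fold lower in mESCs. Among MEF libraries, those of 11441278 and 7312679 counts were the higher pair. Inhbb, the beta B subunit, was at 4.99, 5.64, 3.05 and 5.57 CPM in MEFs and 2.81, 14 and 8.13 CPM in mESCs, and the groups overlapped. Its log2 fold change was 0.78 (SE 0.49, adjusted p = 0.219), which did not pass. It was 0.18 without the mESC library of 8057985 counts, and 1.19 with an adjusted p of 0.0369, which passed, without that of 8193825 counts. Inhbb made up 0.367 to 1.58% of the summed Inhba and Inhbb counts in MEFs and 34.7 to 81.2% in mESCs. These shares did not overlap between the cell types, although Inhbb itself did not pass the test.

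BMP and GDF ligands moved in both directions. Bmp4, the BMP ligand used to support mESC self-renewal, was at 68.1, 51.6, 73.6 and 32 CPM in MEFs and 12.2, 7.83 and 7.07 CPM in mESCs, a log2 fold change of -2.63 (SE 0.33, adjusted p = 7.86e-05). Gdf10, a BMP3-related ligand, was at 10.3, 29.6, 14.5 and 44.6 CPM in MEFs and 0.649, 0.227 and 1.18 CPM in mESCs, a log2 fold change of -5.15 (SE 0.68, adjusted p = 0.000113). For both, every mESC library lay below all MEF libraries. The mESC libraries held only 6, 2 and 10 counts of Gdf10. The MEF libraries of Gdf10 were widely spread, and without the mESC library of 7462710 counts its log2 fold change was -5.755. Gdf11, a ligand that acts through activin receptors, was at 56.1, 61.3, 47.8 and 28.8 CPM in MEFs and 9.2, 11.2 and 9.78 CPM in mESCs, a log2 fold change of -2.26 (SE 0.28, adjusted p = 6.44e-05). Bmp7, a BMP with roles in kidney and eye development, was the only ligand of the list that was higher in mESCs. It had 5, 1, 11 and 2 counts in MEFs and 54, 34 and 57 counts in mESCs, or 0.48, 0.12, 1.68 and 0.318 and 5.84, 3.86 and 6.71 CPM. The log2 fold change was 3.10 (SE 0.69, adjusted p = 0.00347), and it was 4.06 without the MEF library of 7312679 counts, which held 11 of the MEF counts. Bmp2 was at 1.34, 3.24, 1.83 and 4.14 CPM in MEFs and 0.108, 0.114 and 1.41 CPM in mESCs and overlapped, with a log2 fold change of -2.25 (SE 0.88, adjusted p = 0.0554). It passed in 5 of the 13 alternative fits, and without the mESC library of 7462710 counts, which held 12 of its mESC counts, its log2 fold change was -4.39 (adjusted p = 0.00504). Bmp6 and Bmp8b were not tested, since Bmp6 had at most 1 count in any library and Bmp8b at most 6.

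Of the 5 genes that hold or release the ligands, 3 were lower in mESCs, 1 was higher and 1 did not pass. The shares over all genes tested were 25.0% lower and 22.8% higher. Bmp1, a secreted protease that processes procollagen and cleaves chordin, was at 35.1, 39.6, 67.6 and 45.8 CPM in MEFs and 1.62, 0.568 and 1.88 CPM in mESCs, a log2 fold change of -5.09 (SE 0.41, adjusted p = 3.19e-06). The mESC libraries held only 15, 5 and 16 counts of it. Ltbp1, a latent TGF-beta binding protein, was at 126, 123, 121 and 91.2 CPM in MEFs and 24, 21.8 and 25.6 CPM in mESCs, a log2 fold change of -2.27 (SE 0.18, adjusted p = 2.68e-06). Ltbp2, a related matrix protein, was at 39.8, 33.5, 47.9 and 38.4 CPM in MEFs and 2.71, 0.795 and 1.88 CPM in mESCs, a log2 fold change of -4.45 (SE 0.36, adjusted p = 3.7e-06). The 3 genes were lower in every mESC library. Of the 50-base sequences of Ltbp2, 8.58% also occur in other genes, most often in antisense D030025P21Rik, whose row held 8 to 28 counts in MEFs and 0 to 2 in mESCs, and since the strand setting of the counting is not given in the sources used here, the Ltbp2 count is uncertain. Ltbp4 went the other way, at 11.5, 21, 13.3 and 35.5 CPM in MEFs and 37.2, 39.6 and 39.2 CPM in mESCs. Its log2 fold change was 0.94 (SE 0.34, adjusted p = 0.0423), and its adjusted p was 0.0768 to 0.0969 when any of 6 libraries was left out, and it passed without the MEF library of 6528643 counts, where it was highest among MEFs. Ltbp3 did not pass, with a log2 fold change of -0.05 (SE 0.42, adjusted p = 0.938), which changed sign in 4 alternative fits, at 2.29 to 3.66 CPM in MEFs and 2.38 to 4 CPM in mESCs. Ltbp4 made up 6.39 to 21.04% of the summed counts of the 4 Ltbp genes in MEFs and 55.5 to 61.3% in mESCs, and Ltbp1 made up 54.1 to 69.8% and 33.7 to 36.2%.

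**Figure D2:**
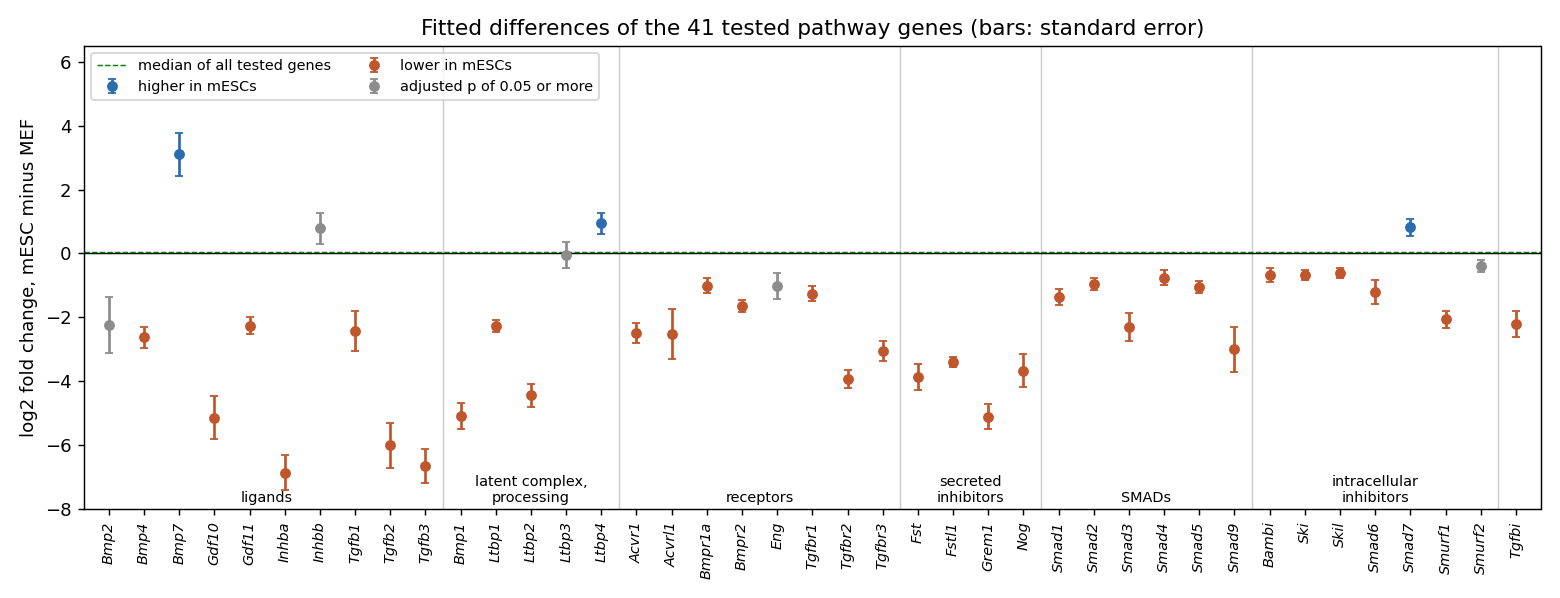
Fitted log2 fold change, mESC minus MEF, of the 41 tested pathway genes, with bars of 1 standard error. Orange points are lower in mESCs, blue points higher and grey points did not pass. Ligands span from -6.87 to 3.10, whereas receptor-regulated SMADs, Smad4 and intracellular inhibitors lie between -3.01 and 0.82.

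Receptors were lower in mESCs in 7 of the 8 tested genes, and none was higher. Among all genes tested, 25.0% were lower and 22.8% were higher. Tgfbr2, the TGF-beta type II receptor, was at 29.4, 43.2, 34.5 and 39.5 CPM in MEFs and 2.16, 1.93 and 3.06 CPM in mESCs, a log2 fold change of -3.93 (SE 0.28, adjusted p = 1.28e-06). Tgfbr1, its type I partner, was at 20.7, 31.2, 24.9 and 28.2 CPM in MEFs and 8.98, 11.6 and 12.3 CPM in mESCs, a log2 fold change of -1.26 (SE 0.24, adjusted p = 0.00125). Both were lower in every mESC library, and the difference between these 2 fold changes was not tested. Tgfbr3, the coreceptor betaglycan, was at 24.3, 24.9, 14.3 and 23.7 CPM in MEFs and 2.16, 2.38 and 3.3 CPM in mESCs, a log2 fold change of -3.05 (SE 0.32, adjusted p = 2.24e-05). Other genes, most often Gm43422 on the same strand, hold 3.85% of the 50-base sequences of Tgfbr3, so a part of its count is uncertain. Acvr1, a type I receptor for BMPs, was at 19.2, 20.2, 34.7 and 21.2 CPM in MEFs and 3.68, 4.54 and 4.36 CPM in mESCs, a log2 fold change of -2.50 (SE 0.30, adjusted p = 6.06e-05). Acvrl1, a type I receptor best known from endothelium, was at 8.64, 7.8, 6.26 and 5.73 CPM in MEFs and 2.81, 0.795 and 0 CPM in mESCs, a log2 fold change of -2.53 (SE 0.79, adjusted p = 0.0221). Its mESC libraries ran from 0 to 26 counts, the adjusted p was 0.0726 without the mESC library of 8057985 counts, and the log2 fold change was -4.10 without that of 8193825 counts.

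Bmpr2 and Bmpr1a were also lower in mESCs. Bmpr2, the BMP type II receptor, was at 79.6, 66.7, 67.8 and 54.9 CPM in MEFs and 19.3, 21.1 and 23.4 CPM in mESCs, a log2 fold change of -1.66 (SE 0.18, adjusted p = 3.45e-05). Bmpr1a, a BMP type I receptor, was at 116, 104, 120.0 and 101 CPM in MEFs and 41.3, 78.2 and 44.2 CPM in mESCs, a log2 fold change of -1.01 (SE 0.23, adjusted p = 0.00381). The groups did not overlap in either gene. Antisense Gm17110 overlaps Bmpr1a, with 2 to 19 counts in MEFs and 17 to 38 in mESCs in its own row. Bmpr1b, the other BMP type I receptor, was not tested, with 19, 5, 8 and 11 counts in MEFs and 0, 2 and 2 counts in mESCs, and Bmpr1a made up at least 98.3% of the summed counts of this pair in every library. Eng, the coreceptor endoglin, was at 3.65 to 9.46 CPM in MEFs and 2.38 to 3.57 CPM in mESCs, and its log2 fold change of -1.02 (SE 0.42, adjusted p = 0.0672) did not pass.

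All 4 tested secreted inhibitors were lower in mESCs, against 25.0% of all genes tested. Their libraries did not overlap, which held for 52.0% of all genes tested. Fst, follistatin, which binds activin, was at 159, 67.2, 145 and 57 CPM in MEFs and 6.17, 8.29 and 7.19 CPM in mESCs, a log2 fold change of -3.89 (SE 0.41, adjusted p = 2.2e-05). Fstl1, a secreted follistatin-like protein made by mesenchymal cells, was at 2069.7, 3056, 2467 and 2682 CPM in MEFs and 257, 236 and 239 CPM in mESCs, a log2 fold change of -3.39 (SE 0.15, adjusted p = 6.5e-08). In both genes the mESC libraries lay close together. Grem1, a BMP antagonist, was at 27.4, 28.1, 24.7 and 15.9 CPM in MEFs and 0.433, 1.02 and 0.589 CPM in mESCs, a log2 fold change of -5.11 (SE 0.40, adjusted p = 2.56e-06). Nog, the BMP antagonist noggin, was at 9.51, 10.4, 7.48 and 8.28 CPM in MEFs and 0.216, 1.14 and 0.707 CPM in mESCs, a log2 fold change of -3.68 (SE 0.51, adjusted p = 0.000169). Of the 50-base sequences of Fstl1, 5.35% also occur in other genes, most often in Gm11261. The mESC levels of Grem1 and Nog rest on 2 to 10 counts a library. Chrd, the BMP antagonist chordin, was not tested, with 36, 8, 5 and 26 counts in MEFs and 3, 3 and 9 counts in mESCs. Fstl3 was not tested either, had at most 9 counts in any library and shares 46.2% of its 50-base sequences with other genes, most often Prss57 on the opposite strand.

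The 5 receptor-regulated SMADs and Smad4 were lower in mESCs, against 25.0% of all genes tested. The inhibitory Smad6 and Smad7 are described with the intracellular inhibitors. Of the BMP-regulated SMADs, Smad1 was at 43.8, 45.2, 36.6 and 48.2 CPM in MEFs and 18.3, 20.9 and 11.1 CPM in mESCs, a log2 fold change of -1.37 (SE 0.24, adjusted p = 0.000803). Smad5 was at 45.6, 51.8, 35.4 and 52.7 CPM in MEFs and 25.5, 20.0 and 21.3 CPM in mESCs, a log2 fold change of -1.05 (SE 0.20, adjusted p = 0.00142). Smad9 had 35, 37, 8 and 30 counts in MEFs and 2, 7 and 2 counts in mESCs, a log2 fold change of -3.01 (SE 0.72, adjusted p = 0.00531), which was -3.85 without the mESC library of 8057985 counts. Smad9 had a value in only 9 of the 13 alternative fits and passed in these 9. Smad9 made up at most 4.52% of the summed counts of the 3 genes in any library. Of the TGF-beta and activin SMADs, Smad2 was at 36.5, 43.3, 50.8 and 54.1 CPM in MEFs and 23.3, 25.9 and 21.7 CPM in mESCs, a log2 fold change of -0.96 (SE 0.19, adjusted p = 0.00199). Smad3 was at 29.6, 34.7, 18.8 and 29.6 CPM in MEFs and 2.49, 10.2 and 4.24 CPM in mESCs, a log2 fold change of -2.31 (SE 0.44, adjusted p = 0.00136), and -3.06 without the mESC library of 8057985 counts. Smad3 made up 27.0 to 44.8% of the summed Smad2 and Smad3 counts in MEFs and 9.66 to 28.3% in mESCs, so these ranges overlapped. Smad4, the shared partner, was at 37.6 to 54.1 CPM in MEFs and 19.9 to 36.7 CPM in mESCs, with a log2 fold change of -0.76 (SE 0.24, adjusted p = 0.0244). Its call was lost in 5 of the 13 alternative fits, among them the fit with no scaling beyond library size.

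**Figure D3:**
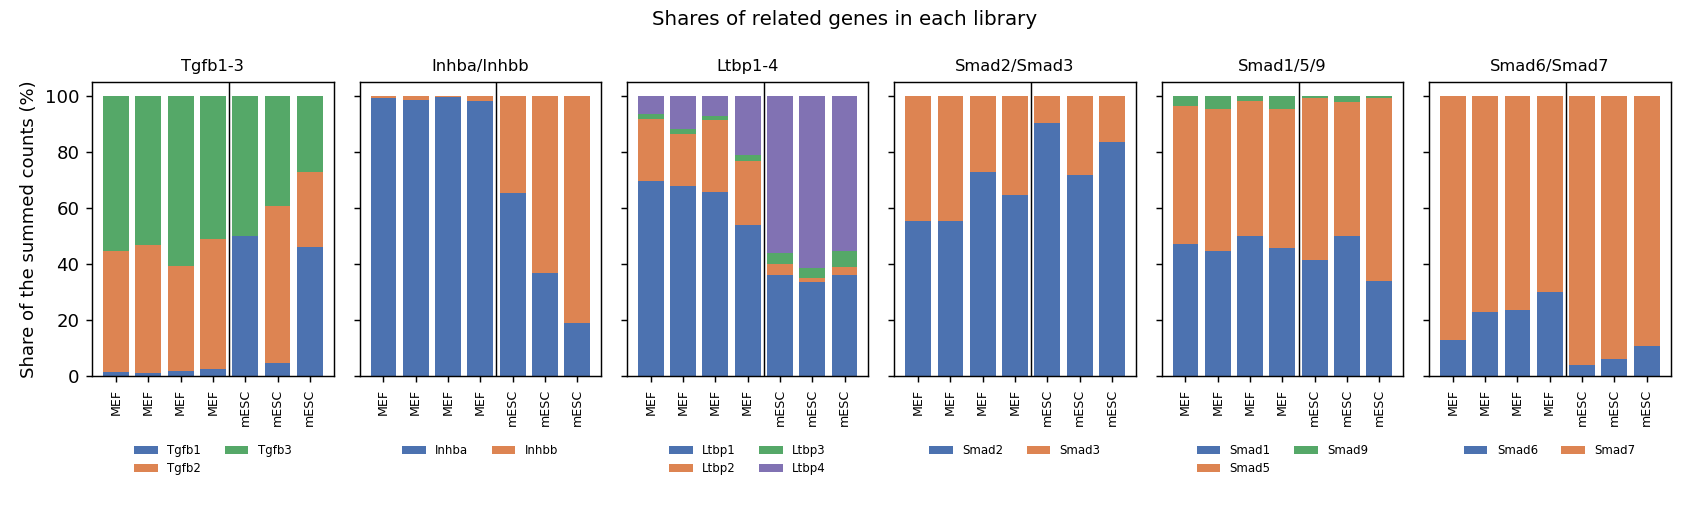
Share of each gene in the summed counts of its set of relatives, as stacked percentages for each library, with MEF libraries on the left of the line and mESC libraries on the right. Inhbb is at most 1.58% in MEFs and at least 34.7% in mESCs, and Ltbp4 is at most 21.04% in MEFs and at least 55.5% in mESCs.

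Intracellular inhibitors were lower in 5 of 7 genes and higher in 1, against 25.0% and 22.8% of all genes tested. Smurf1, a ubiquitin ligase that acts on SMADs and receptors, was at 71.3, 43.8, 89.6 and 54.1 CPM in MEFs and 18, 14.6 and 13.7 CPM in mESCs, a log2 fold change of -2.06 (SE 0.26, adjusted p = 9.41e-05). Smad6, an inhibitory SMAD of the BMP branch, was at 9.89, 17.4, 23.7 and 16.4 CPM in MEFs and 4.11, 9.19 and 8.6 CPM in mESCs, a log2 fold change of -1.20 (SE 0.38, adjusted p = 0.0222), a call lost in 4 of the 13 alternative fits. Smad7, the inhibitory SMAD induced by TGF-beta, was at 66.9, 58.4, 77.2 and 38.2 CPM in MEFs and 106, 141 and 72 CPM in mESCs. Its log2 fold change was 0.82 (SE 0.27, adjusted p = 0.0263), but the lowest mESC library lay below the highest MEF library, and the call was lost in 5 of the 13 alternative fits. Smad7 made up 70.0 to 87.1% of the summed Smad6 and Smad7 counts in MEFs and 89.3 to 96.3% in mESCs. Bambi, a receptor-like inhibitor, and the corepressors Ski and Skil were lower by less than 2-fold, with log2 fold changes of -0.68, -0.68 and -0.62. All 3 lost their call with no scaling beyond library size, where the median of all genes was 0.32. Bambi also lost it without the mESC library of 8057985 counts and without that of 7462710 counts. The call was lost in 4 of the 13 alternative fits for Bambi and in 2 each for Ski and Skil. Smurf2 had a log2 fold change of -0.40 (SE 0.19, adjusted p = 0.103) and did not pass. Tgfbi, a matrix protein named for its induction by TGF-beta, was at 29.1, 64.5, 33 and 65.4 CPM in MEFs and 5.52, 9.76 and 15.8 CPM in mESCs, a log2 fold change of -2.21 (SE 0.41, adjusted p = 0.00124).

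Among other genes of the pathway, extracellular regulators were mostly lower in mESCs. Of 18 further ligands only 5 were tested, and Gdf3, a ligand of pluripotent cells, was at 0.768, 0.72, 0.458 and 0.637 CPM in MEFs and 78.6, 98.1 and 99.2 CPM in mESCs, a log2 fold change of 7.09 (SE 0.24, adjusted p = 1.64e-08). Bmp3 was lower, at -2.31. Of 8 tested further receptors, 2 were higher and 2 were lower, or 25% each way, near the 22.8% and 25.0% of all genes. Acvr2b, an activin type II receptor, was at 17.6, 15.5, 23.4 and 13.5 CPM in MEFs and 142, 218 and 122 CPM in mESCs, a log2 fold change of 3.20 (SE 0.25, adjusted p = 2.6e-06). Amhr2, the receptor of anti-Müllerian hormone, had a log2 fold change of 5.16 (SE 0.67). It had only 1, 1, 2 and 0 counts in MEFs and 48, 35 and 51 counts in mESCs. Rgma and Cd109 had log2 fold changes of -3.20 and -2.77. Of 22 tested further extracellular regulators, 18 were lower and none was higher, with the largest differences in Dcn, Fmod and Fbn2 at -7.40, -7.38 and -7.17. Of 18 tested further intracellular regulators, 3 were higher and 4 were lower, or 16.7% and 22.2%, not above the 22.8% and 25.0% of all genes. The ubiquitin ligase Trim33, the deubiquitinase Usp9x and the corepressor Tgif1 were higher, at 1.53, 1.43 and 1.38, and Ldlrad4, Pmepa1 and Stub1 were lower, at -3.004, -2.32 and -1.03. The median log2 fold change was -3.80 over the extracellular regulators and 0.11 over the intracellular regulators.

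Most genes known to respond to the pathway were lower in mESCs. Of all genes tested, 25.0% were lower and 22.8% were higher, with a median log2 fold change of 0.04. Of 16 genes that respond to TGF-beta, 14 were lower and none was higher, with a median log2 fold change of -4.87, and Col1a2, Col3a1 and Col1a1 had the largest differences at -7.79, -7.73 and -7.72. Junb and Klf10 did not pass. Of 10 genes that respond to BMP, 7 were lower and none was higher, with a median of -2.80, and Runx2, Atoh8 and Id1 had the largest differences at -6.41, -4.80 and -3.49. Col1a1, Col1a2, Col3a1, Dcn and Fbn1 also stand in the list of fibroblast markers, and the lists were chosen with results of these data known, so that their direction is not independent of the cell type markers.

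**Figure D4:**
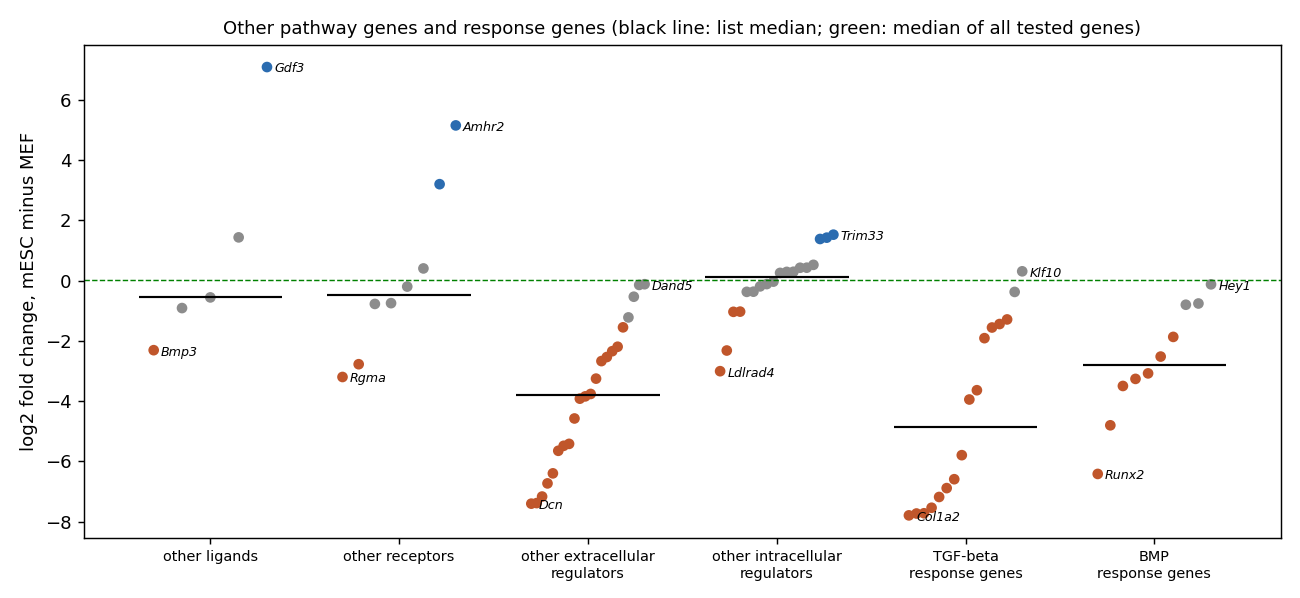
Fitted log2 fold changes, mESC minus MEF, of the tested genes in 6 lists of other pathway and response genes, each point a gene, with the list median as a black line and the median of all tested genes as a green line. Orange points are lower in mESCs, blue higher and grey did not pass. The extracellular regulators and response genes lie mostly below 0 and the intracellular regulators lie around it.

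The mESC levels were also set beside those of the fibroblast markers, a comparison added after values had been seen. The 12 fibroblast markers had mESC mean levels of 0.451 to 16.6% of their MEF means, with a median of 1.24%. The medians were 17.2% for ligands, 20.6% for latent complex and processing genes, 24.6% for receptors, 7.21% for secreted inhibitors, 43.3% for SMADs and 62.5% for intracellular inhibitors. Of the 41 tested pathway genes, 14 were at or below the highest fibroblast marker and 27 were above it. That marker was Lum, and the next highest was Twist1 at 8.03%, so the split depends on 1 marker. A share of fibroblast RNA in the mESC libraries as a source of these values was not tested.

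**Figure D5:**
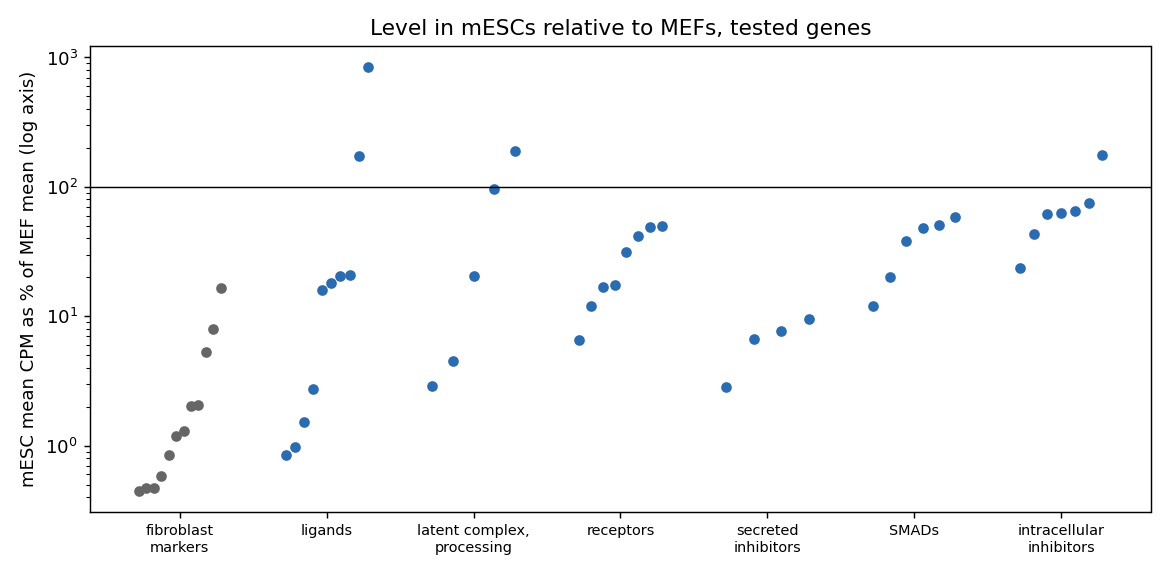
Mean CPM in mESCs as a percentage of the mean CPM in MEFs on a log axis, each point a tested gene, for the fibroblast markers and the pathway genes by role, without Tgfbi. The line marks 100%. The receptor-regulated SMADs and Smad4 lie between 12.1 and 58.7%, and secreted inhibitors between 2.84 and 9.50%.

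The MEF libraries differed among themselves over all genes with enough counts. Chi-square per degree of freedom was 15.8 between the libraries of 11441278 and 7312679 counts and 20.1 between those of 9176467 and 6528643 counts, against 26.2 to 31.1 for the other MEF combinations. As examples chosen after their values were seen, Inhba, Fst, Tgfb3 and Bmp4 were higher in the libraries of 11441278 and 7312679 counts than in the other MEF libraries, and Gdf10, Tgfbi, Bmp2 and Ltbp4 were lower in them. In values also added after the data had been seen, the same libraries held 2.11 and 0.611 CPM of the summed Y-linked genes Ddx3y, Eif2s3y and Kdm5d, and the other MEF libraries held 90.7 and 88.5 CPM. In the mESC libraries these genes summed to 1.73, 1.82 and 35.8 CPM. The part of the sex of the embryos or lines in these values was not tested.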

How the data were processed

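RNA-seq counts of 4 MEF and 3 mESC libraries were analysed. The extract protocol in the labels speaks of RNA from young and aged HSC, which are not among these samples, and the count columns carry an unexplained letter, O in all MEF and Y in all mESC names, so the RNA input is uncertain beyond what the cell type markers show. Libraries were made by a 3′-biased method with unique molecular identifiers. The authors used Sabre and Cutadapt to demultiplex and trim, STAR to align to mm10, Je to collapse molecular identifiers and featureCounts to count reads on exons, and the deposited values are raw whole-number counts. The labels and the study's methods name different STAR versions, and the annotation release and strand setting are not given in the sources used here. Without strand, reads of a gene and its antisense partner cannot be told apart, and 13 of the 46 genes overlap exons of the opposite strand. The column names give the cell type, but nothing links their numbers to the numbers of the samples, so libraries are named by their totals. Of the per-sample columns, 0 were left unused. A total of 26 symbols with the form of dates held 0.249% of the counts and were kept in the totals.

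The count test was edgeR 4.0.16 (R 4.3.3, limma 3.58.1) with TMM scaling, filterByExpr, a quasi-likelihood fit of cell type to all 7 libraries, no covariates and Benjamini-Hochberg adjustment over all 16580 genes tested, at an adjusted p of 0.05. log2CPM used a prior count of 2. A count of 3 was taken as the floor of a library, which was 0.288 to 0.478 CPM, and it covers counting error only. The study's legends call its RNA data biological replicates, n = 3 for each cell type, whereas 4 MEF columns were deposited and all 4 were used. Whether the replicates came from separate cultures, animals or lines is not stated, and p-values measure the spread between these samples. Replicates of a cell type differed by 15.6 to 31.1 in chi-square per degree of freedom, far above sampling noise, and none was counted as a repeat.

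The pathway genes and all gene lists were chosen with earlier results of these data known. Genes called with a log2 fold change of at least 1 in either direction, and pairs of close relatives, are given by library, and of each wider list at most 3 called genes each way, without overlap between the cell types, are named. Genes named beyond this are Junb and Klf10, chosen after their values were seen. Alternatives were DESeq2 1.42.0, 2 other scalings, 2 other filters, a test against a fold change of 2, a prior count of 0.5 and leaving out each library. The code was tested on simulated data. Gene positions are from GENCODE M21 on GRCm38, promoters from RefSeq (GRCm38.p6), and shared sequence was counted in 50-base words of annotated transcripts on both strands.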

Additional observations from a re-analysis of the deposited data

Results flagged for a closer look

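In 3 of the 46 genes, 1 MEF library was far from the other 3 by Dixon's criterion, for which chance alone gives about 1 in 20 groups, or 2.3 of 46. Ltbp1 was at 91.2 CPM in the MEF library of 6528643 counts and at 121.4 to 125.9 CPM in the others. Tgfbr3 was at 14.35 CPM in the MEF library of 7312679 counts and at 23.7 to 24.95 CPM in the others. Acvr1 was at 34.65 CPM in the same library and at 19.2 to 21.2 CPM in the others. The mESC libraries of all 3 genes lay below every MEF library, and the genes were called lower in all 13 alternative fits, each MEF library left out in turn included. Groups of 3 mESC libraries were not examined in this way.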

How the results depend on the processing

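Over 13 alternative fits, 482 of 529 alternative log2 fold changes of the pathway genes kept their direction and their side of the threshold, 36 no longer passed, 7 newly passed and 4 reversed. Each of the 41 tested genes had a value in all 13 fits except Smad9, which had a value in 9. All reversals were of Ltbp3, which was not called: 0.24 with no scaling beyond library size, and 0.0286, 0.0429 and 0.0915 without the MEF library of 6528643 counts, the mESC library of 8193825 counts and that of 8057985 counts. Its values over the libraries left out ran from -0.31 to 0.09. In the test against a fold change of 2, 3991 of all genes passed in place of 7938, 23 pathway genes in place of 36, and 1 pathway gene was higher in place of 3. With no scaling beyond library size the median of all genes was 0.32 in place of 0.04, 61.0% of all calls were higher in place of 47.7%, and 31 pathway genes were called. Leaving out each library gave 7032 to 7522 calls over all genes, 32 to 36 pathway genes called, 31 to 34 of them lower and 1 to 2 higher. The count of higher genes was 1 without the MEF library of 9176467 counts and without the mESC library of 8057985 counts. Of the 3 higher genes, Bmp7 passed in all 13 alternatives, Smad7 in 8 and Ltbp4 in 6. The cause of these changes was not tested. With a prior count of 0.5, mean log2CPM moved beyond the spread of libraries in Bmp6, Bmp8b and Bmpr1b, which have few counts. No paired analysis was possible because nothing links the column numbers to the replicate numbers of the samples. Bmp6, Bmp8b, Bmpr1b, Chrd and Fstl3 had too few counts to be tested at this depth, which does not tell low from absent expression. Genes that rest on few counts in at least 1 cell type include Bmp2, Bmp7, Tgfb1, Tgfb2, Tgfb3, Smad9, Gdf10, Grem1, Nog, Bmp1 and Acvrl1.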
